A study of Mus musculus with 12 samples.

Results

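The genes described are 10 genes of transforming growth factor beta (TGF-beta) signalling, measured by RNA-seq in neutrophils sorted from mouse hearts. They were chosen by symbol as the ligand Tgfb1, the receptor genes Tgfbr1 and Tgfbr2, the signal transducer Smad3, the inhibitory Smad7, the co-repressors Ski and Skil, and the targets Tgfbi, Id1 and Id3. All 10 are in the deposited table of 11911 genes, and none is missing from it. The 12 libraries divide into 6 of the genotype labelled control and 6 of the genotype labelled LOY, for loss of the Y chromosome, which the series title places in blood-forming cells. All 12 titles name control bone marrow transplants, and the treatment label reads control throughout; the groups were taken from the genotype label, and the codes in the titles (ending in C or KO) divide the libraries the same way. Each library came from 800 left ventricular cells gated by flow cytometry as CD45.2+Ly6G+CD64- and positive for a red fluorescent protein. The strain, age and sex of the mice, and the way in which the Y chromosome was lost, are not given in the sources used here. Whether the numbered libraries are separate mice is not stated, so the p-values reflect only library-to-library spread, which may be in part technical.

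TGF-beta is secreted in a latent complex and acts once it is released. It binds TGFBR2, which activates TGFBR1, and the activated receptor phosphorylates SMAD2 and SMAD3, which enter the nucleus with SMAD4 and switch target genes. SMAD7 blocks the receptor, and SKI and SKIL hold SMAD complexes in a repressed state, so these 3 genes act as brakes. In the heart TGF-beta is best known for driving fibroblasts to deposit matrix. Leukocytes, neutrophils among them, both make the ligand and respond to it.

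The sequences upstream of the ligand gene, of both receptor genes and of the target Tgfbi are shown, because these 4 genes span the pathway from signal to target. They are from RefSeq on GRCm38.p6, read 5′ to 3′ on the strand of the gene, and end at the base before the start site. The Tgfb1 window is chr7:25686752-25687001 (plus strand), the Tgfbr1 window is chr4:47352972-47353221 (plus), and the Tgfbr2 window is chr9:116175364-116175613 (minus), each 250 bases long. The Tgfbi window, chr13:56609336-56609522 (plus), was limited to the 187 bases that lie before both the RefSeq and the GENCODE gene model. Capitals mark the letters CAGAC or their reverse complement GTCTG, a motif that SMAD3 can bind, and GGCGCC, a GC-rich motif that SMAD proteins can bind.
Tgfb1: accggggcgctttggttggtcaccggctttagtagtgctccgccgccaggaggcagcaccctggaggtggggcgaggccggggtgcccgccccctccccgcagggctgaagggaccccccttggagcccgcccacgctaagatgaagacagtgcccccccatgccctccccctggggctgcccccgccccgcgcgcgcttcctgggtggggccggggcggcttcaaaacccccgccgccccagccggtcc
Tgfbr1: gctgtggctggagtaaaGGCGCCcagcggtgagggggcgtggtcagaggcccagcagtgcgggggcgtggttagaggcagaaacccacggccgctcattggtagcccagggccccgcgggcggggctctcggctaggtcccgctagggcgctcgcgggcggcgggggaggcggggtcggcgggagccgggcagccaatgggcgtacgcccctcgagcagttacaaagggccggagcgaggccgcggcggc
Tgfbr2: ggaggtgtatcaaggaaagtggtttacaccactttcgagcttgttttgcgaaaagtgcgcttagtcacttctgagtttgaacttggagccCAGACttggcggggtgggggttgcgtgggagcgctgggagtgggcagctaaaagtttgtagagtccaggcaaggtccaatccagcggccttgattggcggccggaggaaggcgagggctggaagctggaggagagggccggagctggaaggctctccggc
Tgfbi: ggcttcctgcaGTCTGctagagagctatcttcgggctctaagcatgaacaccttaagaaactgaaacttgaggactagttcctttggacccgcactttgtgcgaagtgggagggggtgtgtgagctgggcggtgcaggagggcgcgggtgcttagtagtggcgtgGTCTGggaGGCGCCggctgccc
The search covered both strands and also the palindrome GTCTAGAC, which is absent from all 4 windows. The Tgfb1 window held no match, the Tgfbr1 window shown held 1 GGCGCC, the Tgfbr2 window held 1 CAGAC, and the Tgfbi window held 2 matches of CAGAC or GTCTG and 1 GGCGCC. Of 32851 promoter windows of 250 bases, 42.2% held CAGAC or GTCTG, 9.59% held GGCGCC and 0.167% held GTCTAGAC. For windows of 187 bases the shares were 34.2%, 6.49% and 0.143%. RefSeq gives Tgfbr1 a further start site inside the gene, whose window (chr4:47385966-47386215) held 1 CAGAC and no GGCGCC. A match describes letters in the window and not a bound site.

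Values are the authors' read counts after division by a library factor, and are called normalised reads. The listed genes summed to between 6767108 and 12561174 reads per library. Ddx3y, a Y-linked helicase gene, lay between 400 and 1341 normalised reads in the control libraries. In the LOY libraries it lay between 0 and 51.6, with its highest value in LOY 10. The Y-linked Eif2s3y overlapped between the groups, at 0.828 to 951 in the control and 0 to 16.8 in the LOY libraries. Uty, also Y-linked, was at 0 in all 6 LOY libraries and in 2 control libraries, and reached 298 in the control. Kdm5d, a further Y-linked gene, is missing from the deposited table. The neutrophil genes S100a8, S100a9 and Csf3r were high in every library, at 15795 normalised reads or more. Ly6g, the gene of the sorting antigen, was below 10 normalised reads in control 12 and in LOY 3, 4 and 10, and between 186 and 1039 in the other 8 libraries. Fcgr1, the gene of CD64, lay between 1.66 and 133 in the control and between 1.05 and 379 in the LOY libraries. Markers of other cells were present too. The 15 cardiomyocyte genes summed to between 4195 and 8602 normalised reads in the control and between 4850 and 66240 in the LOY libraries, with LOY 10 highest. The 11 listed endothelial genes summed to between 1180 and 4103 against 2664 and 6412, and the 10 fibroblast genes to between 2972 and 10540 against 5835 and 16450. The 10 listed macrophage genes summed to between 4949 and 9379 against 2687 and 11410. The B cell sum and the red cell and platelet sum had lower medians in the LOY libraries, with ranges that overlapped. They were 7229 against 4849 for 8 B cell genes and 5019 against 529.6 for 7 red cell and platelet genes. The T and NK cell sum went the other way, with medians of 1.14 against 108 and ranges that overlapped. Only 2 of the 8 genes on that list are in the deposited table. Of the cardiomyocyte, endothelial, fibroblast and macrophage lists, 9, 3, 2 and 9 genes were above 0 in all 12 libraries. The other genes of these lists were at 0 in at least 1 library. Among them were the endothelial gene Cdh5 in LOY 5 and the fibroblast gene Col1a1 in control 6, control 7 and LOY 14. The part of these cells in the values below was not tested, and in bulk libraries fewer cells of a type and less RNA per cell cannot be told apart.

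Most of the 10 genes were read unevenly from library to library, and Tgfbi alone stood far above the rest. Divided by the length of its exons, Tgfbi had 1696 ± 523 normalised reads per kb over all 12 libraries (SD, n = 12). Id1 followed with 254 ± 189 and Id3 with 253 ± 185. Skil had 87.9 ± 44.1, Tgfbr2 81.4 ± 73.2, Tgfbr1 64.6 ± 53.2 and Ski 53.8 ± 53.1 per kb. The lowest were Tgfb1 with 27.7 ± 23.0, Smad3 with 27.5 ± 30.7 and Smad7 with 11.5 ± 15.8 per kb (SD, n = 12 each). Only the step from Tgfbi to Id1 exceeded the SD of both neighbours in this order. The median over the 6951 genes tested was 69.6 per kb. Tgfbi was the member of highest level per kb in 12 of 12 libraries, from 1.71 to 12.0 times the next member.

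The spread over libraries also set the genes apart. The coefficient of variation over the 12 libraries was 30.9% for Tgfbi and 50.2% for Skil, against a median of 86.9% over all genes tested. It was 73.2% for Id3, 74.3% for Id1, 82.3% for Tgfbr1, 83.0% for Tgfb1 and 89.9% for Tgfbr2. It reached 98.7% for Ski, 111% for Smad3 and 138% for Smad7. Tgfbi, Skil and Tgfbr1 were at 10 or more normalised reads in all 12 libraries, as were 35.3% of the genes tested. Smad3 and Smad7 were each below 10 in 4 libraries, Tgfb1, Id1 and Id3 each in 2, and Tgfbr2 and Ski each in 1. A level of 0 was recorded for Smad3 in 3 libraries, for Id3 in 2 and for Id1 in 1. Between 6 and 10 of the members were at 10 or more in a library, with the fewest in LOY 5 and all 10 in control 2, LOY 3 and LOY 10.

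**Figure D1:**
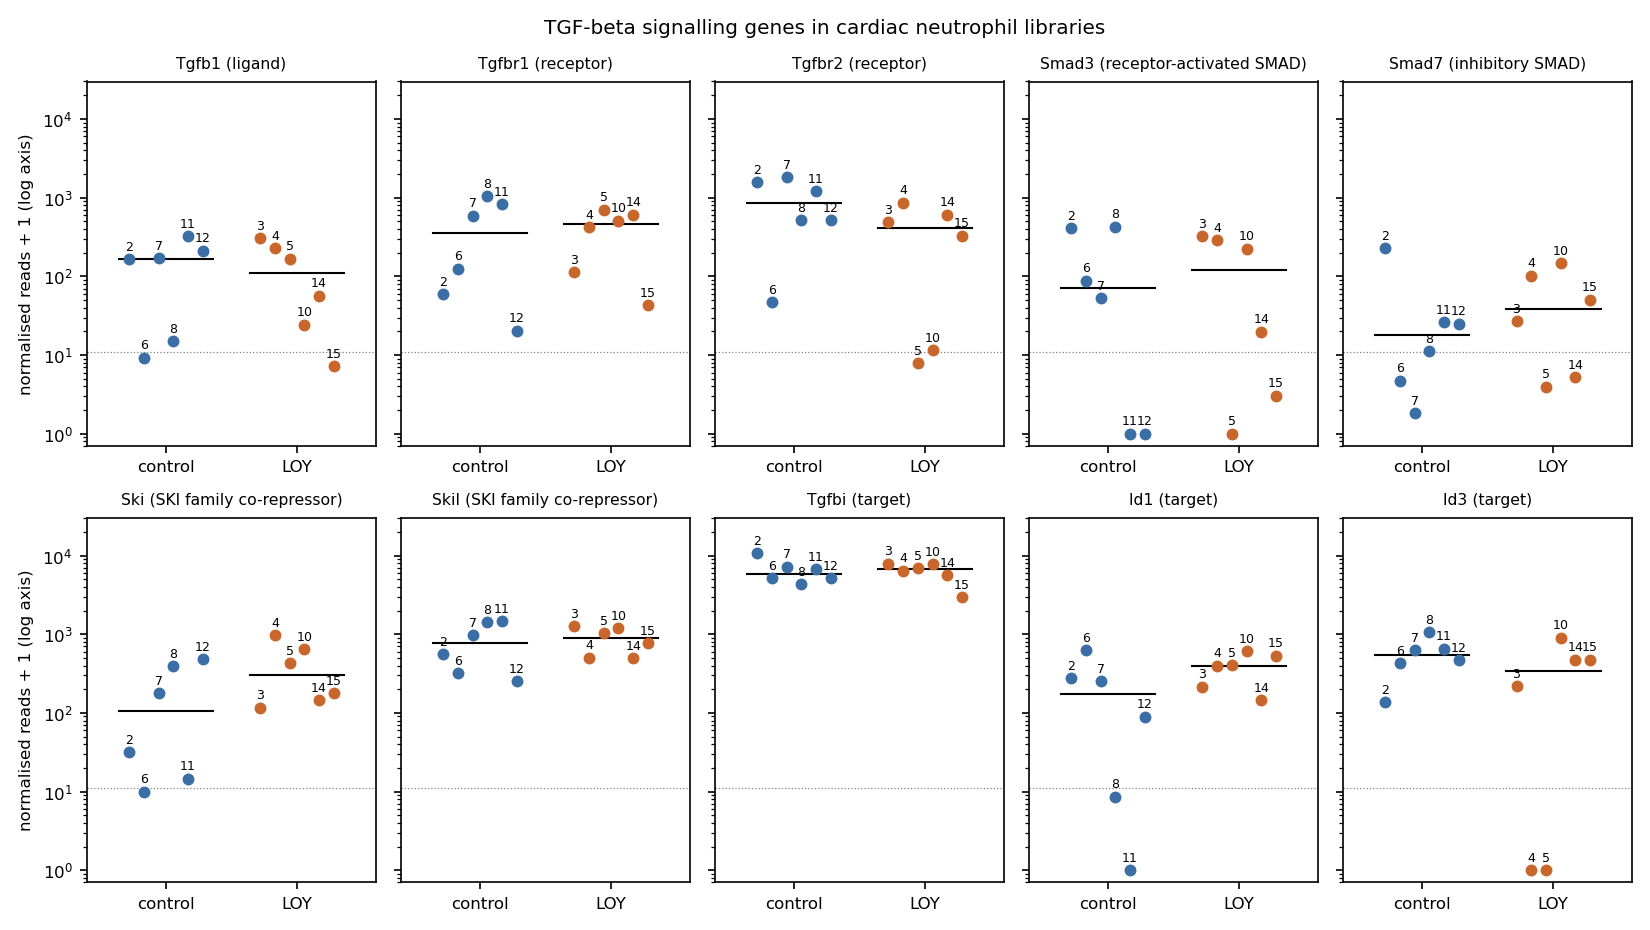
Normalised reads + 1 (log axis) of the 10 TGF-beta signalling genes in 6 control (blue) and 6 LOY (orange) libraries, 1 point per library with its number. Black lines are group medians and the dotted line marks 10 normalised reads. Tgfbi lies between 2970.0 and 10674 in all 12 libraries, while Smad3, Id1 and Id3 include libraries at 0.

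The comparison of LOY with control asked whether loss of the Y chromosome goes with another level of these genes. None of the 10 passed the test for a difference, and for most of them the interval was wide. In limma, fitted on log2(normalised reads + 1) over the 6951 genes that reached 10 normalised reads in 6 or more libraries, 0 of the 10 members passed an adjusted p of 0.05, where 2 genes did in all (0.0288%). All 10 members were among the genes tested. At an unadjusted p of 0.05, 0 of the 10 passed against 304 genes in all (4.37%). DESeq2 called 0 of the 10 against 303 of 9723 genes (3.12%), of which 23 were among the 6951 genes past the same filter as the members (0.331%), and edgeR called 0 of the 10 and 0 genes in all. The control and LOY libraries overlapped for all 10 members, where 14 of the genes tested (0.201%) did not overlap. The log2 fold change was positive for 6 members and negative for 4, with a median of 0.20, against 3500 positive, 3451 negative and a median of 0.0081 over all genes tested. The balance turned with the method, to 4 positive and 6 negative with a median of -0.11 in both DESeq2 and edgeR. Without the 4 libraries low in Ly6g, 2 of the 8 members tested were positive and 6 negative, with a median of -0.36. Fold changes are on the log2(value + 1) scale and can differ from the ratio of mean reads, in size or sign, where some libraries of a group are near 0.

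Tgfb1, the ligand (ENSMUSG00000002603, GRCm38 chromosome 7, 25687002 to 25705077), was read in all 12 libraries at a low level. The control libraries ran from 8.23 through a median of 168 to 324 normalised reads, and the LOY libraries from 6.18 through 111 to 305. The low libraries were control 6 and 8 and LOY 15, 10 and 14, and the high ends of both groups lay close together. The group means were 149 ± 121 and 130.4 ± 121 (SD, n = 6 each). In limma the log2 fold change was -0.21 (SE 1.32, 95% interval -3.03 to 2.62, adjusted p = 0.9995). The interval includes an 8-fold difference downward and a 4-fold difference upward, so differences of that size were not excluded by these libraries. Leaving out 1 library turned its sign in 6 of 12 cases, between -0.83 without control 6 and 0.45 without LOY 15.

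The receptor genes were high together in some libraries, such as control 7 and 11, and far apart in others, such as LOY 5 and 10. Tgfbr2 encodes the ligand-binding receptor (ENSMUSG00000032440, chromosome 9, 116084293 to 116175360). Its control libraries ran from 45.7 through a median of 867 to 1820.0 normalised reads, and its LOY libraries from 6.92 through 406 to 863. The highest LOY library, LOY 4, lay below control 2, 7 and 11, while LOY 5 with 6.92 and LOY 10 with 10.6 lay far below the other 4 LOY libraries. Control 6 was the low control library, within the LOY range. The means were 950 ± 695 and 383 ± 339 (SD, n = 6 each), a ratio of LOY to control of 0.404. With limma, the log2 fold change of -2.08 (SE 1.33, 95% interval -4.94 to 0.78) did not pass (adjusted p = 0.997), and DESeq2 gave -1.31 (adjusted p = 0.950). The sign stayed negative in all 12 fits that left out 1 library, from -2.81 without control 6 to -1.25 without LOY 5.

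Tgfbr1 encodes the signalling receptor kinase (ENSMUSG00000007613, chromosome 4, 47353222 to 47414931). Its control libraries ran from 19.4 through 358 to 1045 normalised reads, and its LOY libraries from 42.2 through 464 to 705. The lowest libraries were control 12 and LOY 15, and the highest control 8 and LOY 5. The means were 444 ± 438 and 400 ± 268 (SD, n = 6 each). The log2 fold change was 0.42 in limma (SE 1.11, 95% interval -1.95 to 2.80, adjusted p = 0.999) and -0.15 in DESeq2 (adjusted p = 0.999), so its direction depended on the method. Within libraries the receptors parted most in LOY 5, with 705 normalised reads of Tgfbr1 and 6.92 of Tgfbr2, in LOY 10, with 511 and 10.6, and in control 2, with 58.7 and 1581. Per kb, Tgfbr2 lay above Tgfbr1 in 4 of 6 control and 3 of 6 LOY libraries.

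Smad3, the transducer that carries the receptor signal to the nucleus (ENSMUSG00000032402, chromosome 9, 63646767 to 63757994), was present in some libraries of each group and missing from others. The control libraries ran from 0 through a median of 69.5 to 428 normalised reads, and the LOY libraries from 0 through 121 to 326. It was at 0 in control 11, control 12 and LOY 5 and at 2.06 in LOY 15. The means were 162 ± 200 and 143 ± 152 (SD, n = 6 each). Its limma log2 fold change of 0.11 (SE 2.06, 95% interval -4.30 to 4.52, adjusted p = 0.9999) turned sign in DESeq2 (-0.18) and edgeR (-0.17). With control 11 or control 12 left out it was -0.88, and with LOY 5 left out it was 1.12.

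The brakes of the pathway differed in scatter, and none passed. Smad7, the inhibitory SMAD (ENSMUSG00000025880, chromosome 18, 75367529 to 75395935), was the least abundant member. The control libraries ran from 0.828 through a median of 17.1 to 228 normalised reads, and the LOY libraries from 2.97 through 37.7 to 145. Control 2 held 228 and the next control library 25.0, so most of the control mean of 48.7 ± 88.6 came from 1 library, against 54.9 ± 57.4 for LOY (SD, n = 6 each). In limma the log2 fold change was 0.81 (SE 1.43, 95% interval -2.25 to 3.87, adjusted p = 0.999).

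Ski, a co-repressor named for a retroviral oncogene (ENSMUSG00000029050, chromosome 4, 155154075 to 155222592), had its low libraries among the controls. The control libraries ran from 8.98 through a median of 104 to 482 normalised reads, and the LOY libraries from 116 through 303 to 971. Control 6, 11 and 2 held 8.98, 13.6 and 30.5, below every LOY library, whereas control 7, 8 and 12 lay within the LOY range. The means were 183 ± 207 and 415 ± 342 (SD, n = 6 each), a ratio of 2.26. The limma log2 fold change of 2.06 (SE 1.16, 95% interval -0.42 to 4.54) did not pass (adjusted p = 0.997). It stayed positive with each library left out, from 1.49 without control 6 to 2.61 without control 12, and was 1.18 in both DESeq2 and edgeR. LOY 10, the library of the highest cardiomyocyte sum (66240), held 650 normalised reads of Ski, second to the 971 of LOY 4, whose sum was 12276. LOY 3, with a sum of 15499, held the lowest LOY value of Ski, 116. The part of cardiomyocyte RNA in the Ski values was not tested.

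Skil, which encodes the related co-repressor SnoN (ENSMUSG00000027660, chromosome 3, 31095058 to 31122577), was read in every library of both groups. The control libraries ran from 252 through a median of 763 to 1459 normalised reads, and the LOY libraries from 495 through 896 to 1270.1. The lowest were control 12 and 6 and the highest control 11 and 8, so the LOY libraries lay within the control range. The means were 829 ± 536 and 874 ± 338 (SD, n = 6 each). The limma log2 fold change of 0.28 (SE 0.52, 95% interval -0.82 to 1.39, adjusted p = 0.999) did not pass. Per kb, Skil exceeded Ski in 10 of 12 libraries, with control 12 and LOY 4 the exceptions.

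Among the targets, Tgfbi gave the most precise comparison. It encodes a secreted matrix protein that TGF-beta induces and that binds integrins (ENSMUSG00000035493, chromosome 13, 56609523 to 56639562). The control libraries ran from 4359 through a median of 5909 to 10674 normalised reads, and the LOY libraries from 2970.0 through 6651 to 7904. Control 2 was the highest and LOY 15 the lowest of all, and the other 10 libraries lay within 4359 and 7904. The means were 6529 ± 2292 and 6259 ± 1809 (SD, n = 6 each). Limma gave a log2 fold change of -0.063 (SE 0.28, 95% interval -0.67 to 0.54, adjusted p = 0.9995). Tgfbi was the only member whose 95% interval lay within 1 log2 unit of 0, which 395 of the 6951 genes tested also met.

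Id1 and Id3 encode inhibitors of DNA binding, which pair with basic helix-loop-helix factors and keep them off DNA, and both respond to TGF-beta family ligands. Their fold changes pointed in opposite directions, and neither passed. Id1 (ENSMUSG00000042745, chromosome 2, 152736251 to 152737410) ran from 0 through a median of 170.3 to 621 normalised reads in the control and from 143 through 398 to 613 in the LOY libraries. Control 11 was at 0, control 8 at 7.60 and control 12 at 88.8, all below every LOY library, while control 6 was the highest of all 12. The means were 207 ± 234 and 383 ± 180.0 (SD, n = 6 each), a ratio of 1.85. The limma log2 fold change of 2.59 (SE 1.43, 95% interval -0.47 to 5.66, adjusted p = 0.997) was larger than that of DESeq2 (0.89, adjusted p = 0.999), and it was 1.43 without control 11.

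Id3 (ENSMUSG00000007872, chromosome 4, 136143497 to 136145755) ran from 137 through a median of 544 to 1058 normalised reads in the control and from 0 through 344 to 904 in the LOY libraries. LOY 4 and LOY 5 were at 0, while the other 4 LOY libraries lay within the control range. The means were 561 ± 305 and 344 ± 346 (SD, n = 6 each), a ratio of 0.613. The limma log2 fold change was -3.01 (SE 1.74, 95% interval -6.74 to 0.72, adjusted p = 0.997), against -0.71 in DESeq2 (adjusted p = 0.999). Leaving out LOY 4 brought it to -1.83. LOY 4 and LOY 5, the libraries with 0 reads of Id3, held 396 and 400 normalised reads of Id1, and control 11, with 0 reads of Id1, held 657 of Id3. Both genes are also active in endothelial cells, whose listed markers summed higher in the LOY libraries, with ranges that overlapped. The part of those markers in the Id1 and Id3 values was not tested.

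**Figure D2:**
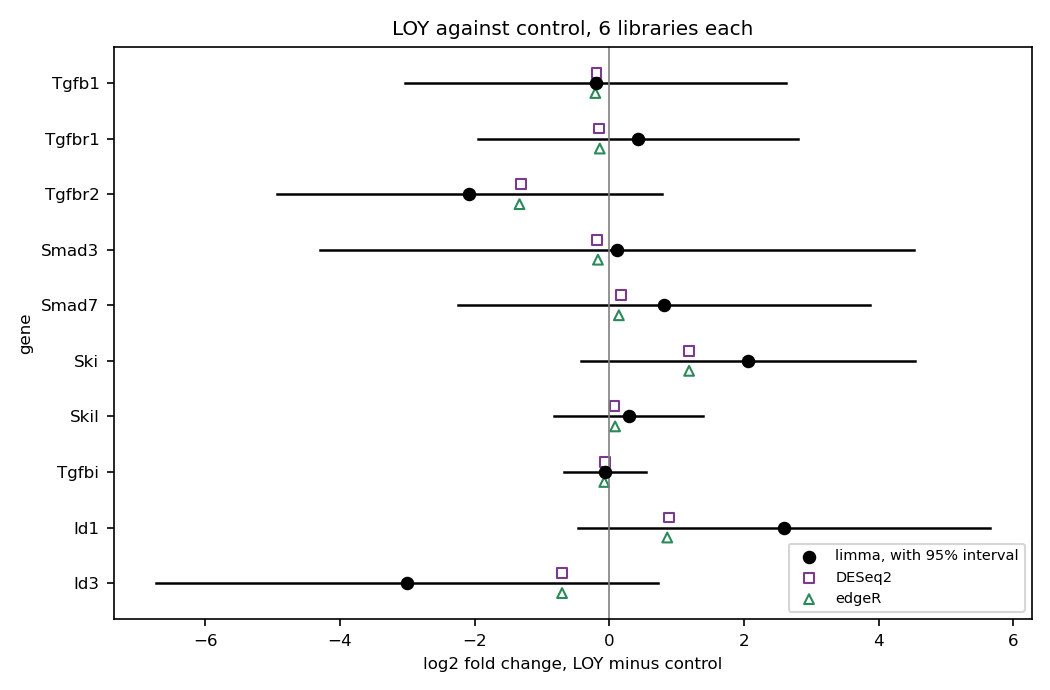
Log2 fold change, LOY minus control, of the 10 genes, 6 libraries per group. Black points with lines are limma estimates with 95% intervals, squares DESeq2 and triangles edgeR. All 10 intervals cross 0, the narrowest that of Tgfbi (-0.67 to 0.54) and the widest that of Smad3 (-4.30 to 4.52).

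The direction of the members differed in how far it rested on single libraries. Tgfbr2, Smad7, Ski, Id1 and Id3 kept their sign in every fit that tested them, Tgfbr2 and Id3 negative and the other 3 positive. Smad7 and Smad3 were not tested in the fit without the 4 libraries low in Ly6g. Tgfb1, Tgfbr1, Smad3, Skil and Tgfbi each turned in at least 1 fit, and Smad3 did so in 9 of 20. No member passed an adjusted p of 0.05 in any fit. The lowest adjusted p of a member over these fits was 0.916, reached by Tgfbr2, Ski, Id1 and Id3.

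**Figure D3:**
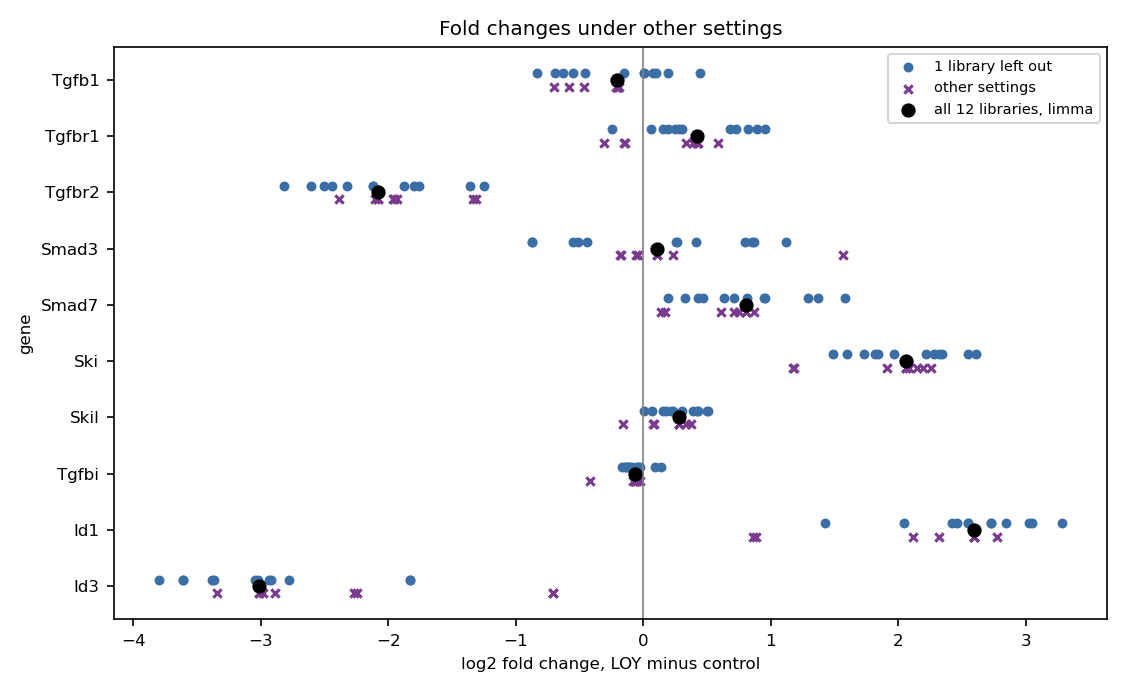
Log2 fold change, LOY minus control, of the 10 genes with all 12 libraries (black), with 1 library left out (blue) and under the other settings (crosses). Tgfbr2 and Id3 lie below 0 and Smad7, Ski and Id1 above 0 in every fit shown, and Smad3 runs from -0.88 to 1.57.

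The wider pathway was read from a list of 94 genes in 6 roles, the 10 members included. The table holds 80 of them, and 50 passed the filter and were tested. None of the 50 passed in limma, 2 had an unadjusted p below 0.05, edgeR called 0, and DESeq2 called 0 of the 50. The log2 fold change was positive for 34 and negative for 16, with a median of 0.28, so that 68% were positive, against 50.4% and a median of 0.0081 over all genes tested. In edgeR 28 were positive and 22 negative, and in limma without the 4 libraries low in Ly6g 20 were positive and 18 negative. DESeq2 called 2 genes of the list that were too sparse for the limma filter, Mmp14 and Wwp1. Over all genes it called 303 of 9723 (3.12%), of which only 23 were past that filter, so most of its calls were of such sparse genes. Mmp14 and Wwp1 are given here because they passed and not by the rule for named genes. Mmp14 encodes a membrane-anchored matrix protease that can release latent TGF-beta, and had 9 reads over the controls and 968 over LOY, the latter from LOY 3, 10 and 15 but for a single read (DESeq2 log2 fold change 6.86, adjusted p = 0.022). Wwp1, a ubiquitin ligase, had 17 reads over the controls and 666 over LOY, mostly from LOY 4 with 649 normalised reads (DESeq2 log2 fold change 5.62, adjusted p = 0.017).

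Of the ligand genes, Tgfb1 alone passed the limma filter. DESeq2 gave adjusted p-values of 0.999 for Tgfb2 and for Inhba, an activin subunit gene, and 0.854 for Gdf15, a stress-induced family member; Inhba and Gdf15 are named after their values were seen. Of the 6 tested genes listed under activation of latent TGF-beta, 0 passed and all 6 had positive log2 fold changes, with a median of 0.69. The role is a label of the list and also covers storage of the latent form, as for Ltbp4 below. DESeq2 gave positive values for 5 of the 6 with a median of 0.089, and limma without LOY 10 gave 4 of 5 with a median of 0.15. Without the 4 libraries low in Ly6g, 3 of 5 were positive, with a median of 0.17. Ltbp4, which encodes a binding protein that stores latent TGF-beta in matrix, ran from 1.66 through 64.2 to 336 normalised reads in the control and from 76.8 through 507 to 832 in the LOY libraries. Only control 2 among the controls reached the upper 5 LOY libraries, which began at 213. Its log2 fold change was 3.06 (SE 1.16, adjusted p = 0.997), and that of its relative Ltbp3 was 2.46 (SE 1.99). Fibroblasts make these binding proteins, and the fibroblast marker sums given above were higher in part of the LOY libraries, whose part in these values was not tested. Mmp9, a neutrophil granule protease that can activate latent TGF-beta, had 17204 ± 7664 and 17828 ± 7254 normalised reads (SD, n = 6 each), with a log2 fold change of 0.084 (SE 0.31).

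Of the receptors outside the 10 members, 2 were tested. Bmpr2, a receptor for bone morphogenetic proteins, averaged 344 ± 279 normalised reads over the controls and 116 ± 128 over LOY (SD, n = 6 each), with a log2 fold change of -2.57 (SE 1.41, adjusted p = 0.997). Eng, an endothelial co-receptor, had 143 ± 149 and 343 ± 399 normalised reads (SD, n = 6 each) and ran up to 1034 in LOY 10. Its log2 fold change was 0.089 (SE 1.75) in limma and 1.26 in DESeq2 (adjusted p = 0.999). Eng is also in the endothelial marker list, and its part in that sum is shared. Among the 9 further SMAD and partner genes tested, 3 were positive and 6 negative, with a median of -0.039. Smad2, the other transducer of TGF-beta, had 323 ± 215 and 589 ± 346 normalised reads (SD, n = 6 each; log2 fold change 1.90, SE 1.35). Zfyve16, which encodes an endosomal anchor of SMAD proteins, stood at -2.42 (SE 2.03), with 3 LOY libraries at 0.

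Most genes listed as inhibitors and co-repressors had positive values, and none passed. With Smad7, Ski and Skil included, 13 of 14 tested genes were positive on the log2 scale (median 0.94), and 0 passed in limma. The role is a label of the list. Rnf111, described below, favours signalling and may not be the only such gene in this role, so the count cannot be read as a count of brakes. DESeq2 gave positive values for 11 of the 14, with a median of 0.21, so the size of the median depended on the method. Nedd4l, a ubiquitin ligase that marks SMAD proteins and receptors for removal, ran from 0 through 20.4 to 135 normalised reads in the control and from 71.1 through 307 to 1078 in the LOY libraries. Control 6 and 11 alone among the controls lay above the lowest LOY library, LOY 15. Its log2 fold change was 4.09 (SE 1.32, adjusted p = 0.997), and DESeq2 gave 3.03 (adjusted p = 0.109). Rnf111, a ubiquitin ligase that degrades SMAD7 and the SKI proteins and so favours signalling, had 360 ± 321 and 651 ± 299 normalised reads (SD, n = 6 each). Limma put the difference at 1.95 log2 units (SE 1.06, adjusted p = 0.997), and in the list it stands among genes that it acts against.

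Of 12 further target genes tested, 8 were positive and 4 negative, with a median of 0.26. Acta2, smooth muscle actin and a mark of myofibroblasts and vessel walls, averaged 559 ± 293 normalised reads over the controls and 238 ± 249 over LOY (SD, n = 6 each). The 95% interval of its limma log2 fold change was -6.25 to 0.25 (adjusted p = 0.997). Postn, which encodes the matrix protein periostin of activated fibroblasts, had 48.4 ± 52.5 and 684 ± 799 (SD, n = 6 each; log2 fold change 3.82, SE 1.97, adjusted p = 0.997). Its LOY values were uneven, at 1866 in LOY 4 and 1523 in LOY 10 and at 0 in LOY 5. Postn is also in the fibroblast marker list, and its part in that sum is shared.

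**Figure D4:**
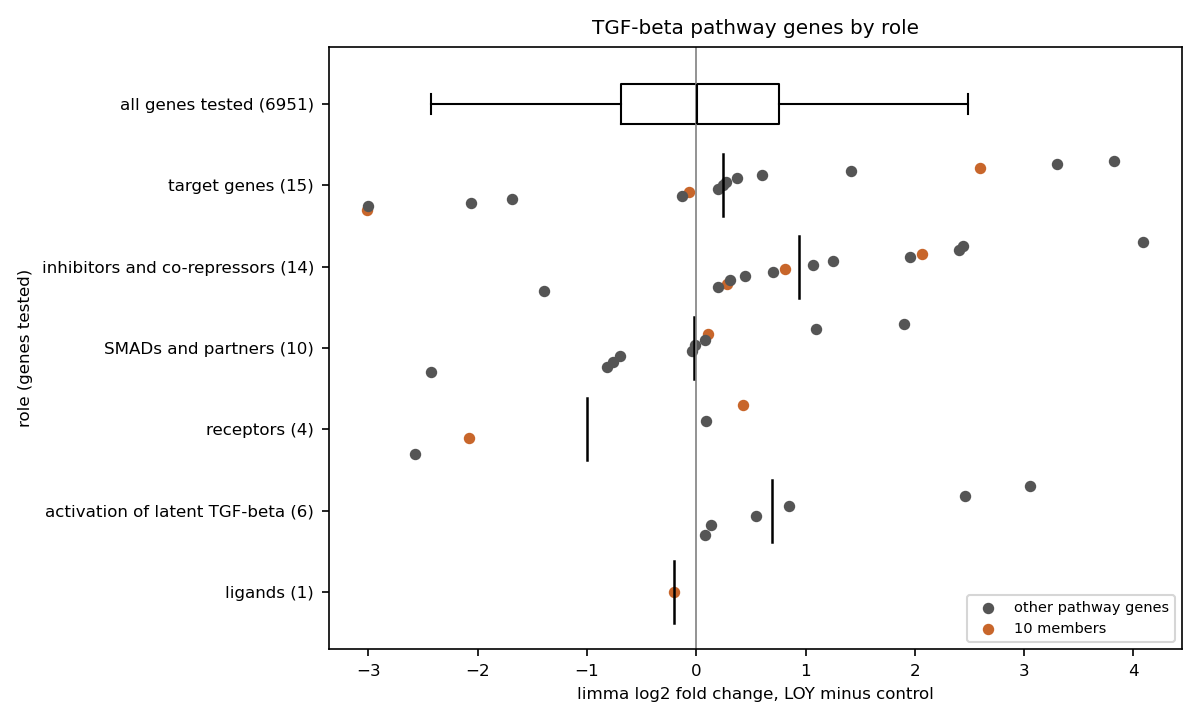
Limma log2 fold change, LOY minus control, of the 50 tested TGF-beta pathway genes by role, 1 point per gene (orange: the 10 members). Short black lines are role medians, and the box shows all 6951 genes tested (quartiles, with whiskers at the 5th and 95th percentiles). The median is 0.94 for the 14 genes listed as inhibitors and co-repressors and -0.023 for the 10 SMADs and partners, and none of the 50 passed.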

How the data were processed

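RNA-seq libraries were made with the SMART-Seq v4 and Nextera XT kits, per the labels' protocols; this chemistry keeps neither strand nor molecular identifiers. No other gene of GENCODE M21 overlaps any of the 10 members. The submitters' processing notes name bcl2fastq 2.17, Trimmomatic 0.36, STAR 2.5.2b, featureCounts of Subread 1.5.2 and the builds GRCm38 and mm10. The signal columns that the authors deposited hold read counts divided by 1 factor per library: 100% of the values above 0 were whole multiples of 1 step, within 0.01 of a read, and the reads were recovered from them. Log2 fold changes and p-values that the authors deposited are not quoted, and no source used here names the tool behind them; the DESeq2 log2 fold changes given here equal those of the authors' deposited table for all 10 members (within 0.001).

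The main test was limma 3.58.1 (trend, robust) on log2(normalised reads + 1), all 12 libraries, genotype as the only term, after a filter that asked for 10 normalised reads or more in 6 libraries or more. P-values were adjusted by Benjamini-Hochberg across the 6951 genes that passed it. DESeq2 1.42.0 and edgeR 4.0.16 were run on the recovered reads, and the fit was tested on simulated data. Symbols turned into dates (17) or blank (8) were replaced from GENCODE M21, whose exons gave gene lengths and coordinates. RefSeq promoter windows matched 7 of the 10 members. The text names all 10 members, and in each role of the pathway list the 2 further tested genes of smallest p; Mmp9, Mmp14, Wwp1, Inhba and Gdf15 and the genes of the closing paragraph on sparse genes were added after their values were seen. The members, lists and tests were chosen with earlier results of these data known.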

Additional observations from a re-analysis of the deposited data

Results flagged for a closer look

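Of the 20 sets of 6 libraries checked, 1 held a library far from the others. Smad7 in control 2 stood at 228 normalised reads, with the next control library at 25.0, a gap of 0.894 of the group's range and above the limit that Dixon's test sets for 6 values. For normally distributed values, about 1 set in 20 is flagged by chance. The check was made on normalised reads, which were skewed for Smad7, and not on the log2 scale of the fit. Without control 2 the limma log2 fold change of Smad7 was 1.59 in place of 0.81, and it did not pass.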

How the results depend on the processing

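The count of members called was 0 under every alternative run. Over all genes, limma called 2, DESeq2 303 and edgeR 0, and limma called 0 with no filter, with a mean of at least 50, and without the 4 libraries low in Ly6g, a setting chosen after seeing the data. With 1 library left out it called 0 to 4 genes. Of the pathway list DESeq2 called 2 genes and all other fits 0. The sign of Tgfbr1 turned with DESeq2 (-0.15), edgeR (-0.14) and without the 4 libraries low in Ly6g (-0.31), and that of Skil in the latter (-0.16). The sign of Smad3 turned with DESeq2 (-0.18), edgeR (-0.17), quantile normalization (-0.041) and a pseudocount of 5 (-0.053). With 1 library left out, log2 fold changes ran from -0.83 to 0.45 for Tgfb1, -0.24 to 0.96 for Tgfbr1, -0.88 to 1.12 for Smad3 and -0.17 to 0.14 for Tgfbi, and each of these 4 turned sign. The cause was not tested. No paired analysis was possible because the groups share no replicate number.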

Other observations

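Several pathway genes were read in too few libraries to pass the limma filter, and are given as values, chosen after they were seen. Tgfb2, a ligand known for its part in heart development, was at 0 in 8 of 12 libraries, with 469 reads over the controls and 313 over LOY. Tgfb3 had 0 reads over the controls and 340 over LOY, all from LOY 4 at 396 normalised reads. Ctgf, the connective tissue growth factor gene and a classic target of TGF-beta in fibroblasts, had 204 reads in the control libraries, nearly all in control 11 at 115 normalised reads. In the LOY libraries it had 2464 reads, at 719 normalised reads in LOY 3, 593 in LOY 4, 570 in LOY 10 and 129 in LOY 15, and 0 in LOY 5 and 14. DESeq2 gave adjusted p-values of 0.496 for Ctgf and 0.999 for Tgfb2.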
